A study of Mus musculus with 6 samples.

Results

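The genes described here encode eIF4F, the protein complex that brings capped mRNA to the ribosome, and the proteins that act directly on it. The members were listed by name, for their part in the initiation step that YBX1 protein represses, and not by any measured value. Earlier results of these data were known when they were chosen. The 10 members are Eif4e, Eif4a1, Eif4a2, Eif4b, Eif4g1, Eif4g2, Eif4g3, Eif4ebp1, Eif4ebp2 and Pabpc1, of 51733 gene symbols in the count tables, and all 10 were found and tested. Total RNA was sequenced from Sox2-positive neural progenitor cells (NPCs) sorted from the neural tubes of E13.5 mouse embryos by the GFP of a Sox2-eGFP allele that both groups carried. The 3 control libraries came from wildtype embryos of the C57BL/6 strain. The 3 Ybx1-KO libraries came from embryos of the same strain in which Ybx1, the gene of a cold-shock domain protein that binds DNA and RNA, is disrupted in the germ line and so in all tissues (Ybx1tm1Ley/Ybx1tm1Ley). No treatment is stated, and both groups went through the same sort. Libraries are named control 1 to 3 and Ybx1-KO 1 to 3 in the order of their records.

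Most mRNAs carry a methylated cap at their start, and eIF4E binds it. eIF4G is the scaffold that joins eIF4E to the RNA helicase eIF4A, to the poly(A)-binding protein PABPC1 and, through eIF3, to the small ribosomal subunit, while eIF4B stimulates the helicase. The 4E-binding proteins (4E-BPs) hold eIF4E away from eIF4G until the kinase mTORC1 phosphorylates them, and cytoplasmic YBX1 is itself known to pack mRNA and to displace eIF4F from the cap. RNA levels do not measure this activity, which depends on protein binding and phosphorylation.

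The libraries held 4743279 to 23883542 counts on genes, and every Ybx1-KO library was shallower than every control library. Ybx1-KO 3 stood apart, with 59.5% of its read pairs outside genes against 30.6 to 46.7% in the other 5 libraries, and with 4691 of every 1000000 gene counts on chemosensory receptors (olfactory, vomeronasal, taste) against 25.5 to 98.3. All 12 progenitor markers checked, Sox2, Nes and Pax6 among them, were counted in every library, and their summed level, in counts per 1000000 (CPM) after normalization, was 1615 to 1817 in control and 1300 to 2103 in Ybx1-KO NPCs. The 15 neuron markers summed to 3806 to 6671 in control and 2186 to 5291 in Ybx1-KO NPCs, so RNA of neurons was abundant in both groups. In such bulk RNA, fewer cells of a type and less RNA per cell cannot be told apart. The 10 mesenchyme markers, none at 0 in any library, were together lower in Ybx1-KO NPCs without overlap (99.9 to 168 against 175.4 to 932), with 8 of the 10 lower in mean, though as single genes 1 was lower and 1 higher without overlap. As single genes, 3 of the 15 neuron markers were lower and 0 higher without overlap, and 1 of the 12 progenitor markers was lower and 3 higher. Over all tested genes, 8.15% were lower and 4.99% higher without overlap. The 11 erythroid markers summed to 525 to 1228 in control and 215 to 1245 in Ybx1-KO NPCs, with Klf1 at 0 in some libraries. Endothelial markers (up to 53.0 in control and 60.7 in Ybx1-KO NPCs) and microglia markers (11.4 to 51.3 against 6.92 to 42.8, with Aif1, C1qa, C1qb, Tyrobp and Ptprc at 0 in some libraries) were low in both groups.

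The deleted gene was examined first. Levels were scaled by TMM, which sets libraries level on the bulk of their genes. Its factors ran from 0.727 in Ybx1-KO 2 to 1.57 in Ybx1-KO 3, and a factor above 1 lowers the CPM of a library. Control libraries 1 to 3 held 238, 531 and 306 CPM of Ybx1, and Ybx1-KO libraries 1 to 3 held 126, 55.4 and 9.66 CPM. The groups did not overlap, and RNA of the gene was still counted in all 3 Ybx1-KO libraries. Its log2 fold change (log2FC, Ybx1-KO over control) was -2.49 ± 0.675 (SE). The edgeR quasi-likelihood p, adjusted by Benjamini-Hochberg over every gene tested, was 0.301 (here edgeR FDR), and DESeq2 gave -2.44 with an adjusted p of 0.0236.

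No eIF4F gene was called, which took an FDR under 0.05 together with a change of more than 1.5-fold. By edgeR 0 of the 10 members passed, against 0 of 21329 tested genes, which is 0% of them. With limma-voom 0 of the 10 members and 0 genes in all passed, and with DESeq2 0 members and 214 genes in all. Without adjustment, edgeR gave a p below 0.05 at 2393 of all genes, limma-voom at 1656 and DESeq2 at 2817. At an unadjusted p below 0.05 there was 1 member, Eif4a2, by each of these tools. It was lower in Ybx1-KO NPCs, as were 4.26% of all tested genes at that limit, while 6.96% were higher. Fold changes of single genes below are given without subtracting the median of all tested genes, which was itself 0.31 on the log2 scale. With it subtracted, the Eif4g1 value below becomes 0.09, that of Eif4ebp2 0.08 and that of Eif4g3 -0.22.

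Eif4e (chromosome 3, bases 138526179 to 138559696, GRCm38), the cap-binding subunit, was at a lower level in every Ybx1-KO library than in any control library. It had 99.9, 80.0 and 73.6 CPM in control and 57.2, 60.4 and 57.7 CPM in Ybx1-KO NPCs. The Ybx1-KO values lay close together, and the gap between the groups was narrower than the range among the controls. The means were 84.5 ± 13.7 and 58.4 ± 1.76 CPM (SD, n = 3 each; two-sided exact permutation test, p = 0.1, the lower limit for 3 against 3). The log2FC was -0.53 ± 0.362 (SE; edgeR FDR 0.508). Groups lay apart in this direction at 8.15% of all tested genes, and in the other direction at 4.99%. Scaled by total count alone, the Eif4e groups overlapped and its log2FC was -0.31, where the median of all genes was 0.53. The summed mesenchyme markers and 3 neuron markers were also lower without overlap, and their part in the Eif4e difference was not tested.

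Eif4a2 showed the largest decrease of the 10 genes. The gene, on chromosome 16 at bases 23107444 to 23114136, encodes one of the paralogous forms of the eIF4A helicase, the other being Eif4a1. Eif4a2 had 376, 181 and 210 CPM in control and 130, 98.0 and 135 CPM in Ybx1-KO NPCs. All 3 Ybx1-KO libraries were below all controls, and control 1 was far above the other controls. The means were 255 ± 105 and 121 ± 20.1 CPM (SD, n = 3 each; two-sided exact permutation test, p = 0.1), and the log2FC was -1.08 ± 0.437 (SE; edgeR FDR 0.443). It was -0.69 (edgeR FDR 0.787) without control 1 and -1.19 without Ybx1-KO 3. Under total count scaling the groups overlapped at -0.81. The summed neuron markers were lowest in Ybx1-KO 3 (2186 CPM), which had the most Eif4a2 of the Ybx1-KO libraries. Among the controls they were lowest in control 1 (3806 CPM), the library with the most Eif4a2. The mesenchyme markers were highest in control 1. The part of neurons and mesenchyme in the Eif4a2 difference was not tested. In the annotation the exons of Eif4a2 share bases with several small RNA genes and with Rfc4 on the opposite strand, so its count is less certain than that of most members. Rfc4 itself had 18.0 to 26.0 CPM in control and 12.4 to 22.2 CPM in Ybx1-KO NPCs.

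Eif4a1, the other helicase gene, had 286, 345 and 456 CPM in control and 352, 343 and 251 CPM in Ybx1-KO NPCs. These ranges overlapped in part, with control 3 above every Ybx1-KO library and Ybx1-KO 3 below every control. The log2FC was -0.20 ± 0.441 (SE; edgeR FDR 0.844). Without control 3 it was 0.00092, and without Ybx1-KO 3 it was -0.08.

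Eif4b, whose protein stimulates the helicase, had 180, 255 and 213 CPM in control and 124, 199 and 79.3 CPM in Ybx1-KO NPCs. Only Ybx1-KO 2 reached into the control range. The log2FC was -0.69 ± 0.441 (SE; edgeR FDR 0.490), and it was -1.09 without Ybx1-KO 2 and -0.45 without Ybx1-KO 3. Under total count scaling the Eif4b groups lay apart, with a log2FC of -0.61, and so did those of Eif4ebp2, higher in Ybx1-KO NPCs. Thus 2 of 10 members lay apart under TMM, against 13.1% of all tested genes in either direction, and 2 of 10 under total counts, against 10.8%, but no gene was in both pairs. The total there was that of tested genes, and with all gene counts as the total Eif4ebp2 overlapped, at 18.8 to 28.4 against 27.8 to 48.6 FPKM (fragments per kilobase of exon and 1000000 gene counts).

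Promoter sequences bear on these genes because the Y-box family is named for binding an inverted CCAAT element. RefSeq promoters on GRCm38.p6 (250 bases before to 50 after a start) were at hand for 7 of the 10 members, in 9 windows. CCAAT, read on both strands (ATTGG on the reverse), was in 2 of the 9 windows, at 1 start of Eif4e and at that of Eif4a1, against 37.4% of 32851 promoters of the same length. The Eif4e match was at the downstream start, and the window at its upstream start held none. The windows of Eif4g3 are nearly the same sequence, at chr4:137993205-137993504 and chr4:137993206-137993505. The longer site CTGATTGG, reverse CCAATCAG, which contains the shorter one, was in 0 of the 9 windows and in 4.1% of all promoters. The elements before the start are shown in capitals, 5′ to 3′ on the strand of the gene, for Eif4e at chr3:138527210-138527239 (plus strand) and for Eif4a1 at chr11:69672498-69672527 and chr11:69672449-69672478 (minus strand).
Eif4e: ggcaggagccggCCAATccggtttgaatct
Eif4a1, outer element: cggacccttcagCCAATgaggccatagggc
Eif4a1, inner element: ctttcaaactacCCAATagggcgtccgaac
The elements began at -46 from the Eif4e start and at -92 and -43 from the Eif4a1 start. Another Eif4a1 match lay after the start. All matches in the windows of the members read CCAAT on the strand of the gene, and the inverted form ATTGG was not among them. These are matches of letters, and binding was not measured in these files. Of the genes with a CCAAT match, Eif4e was lower without overlap and Eif4a1 overlapped between the groups.

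**Figure D1:**
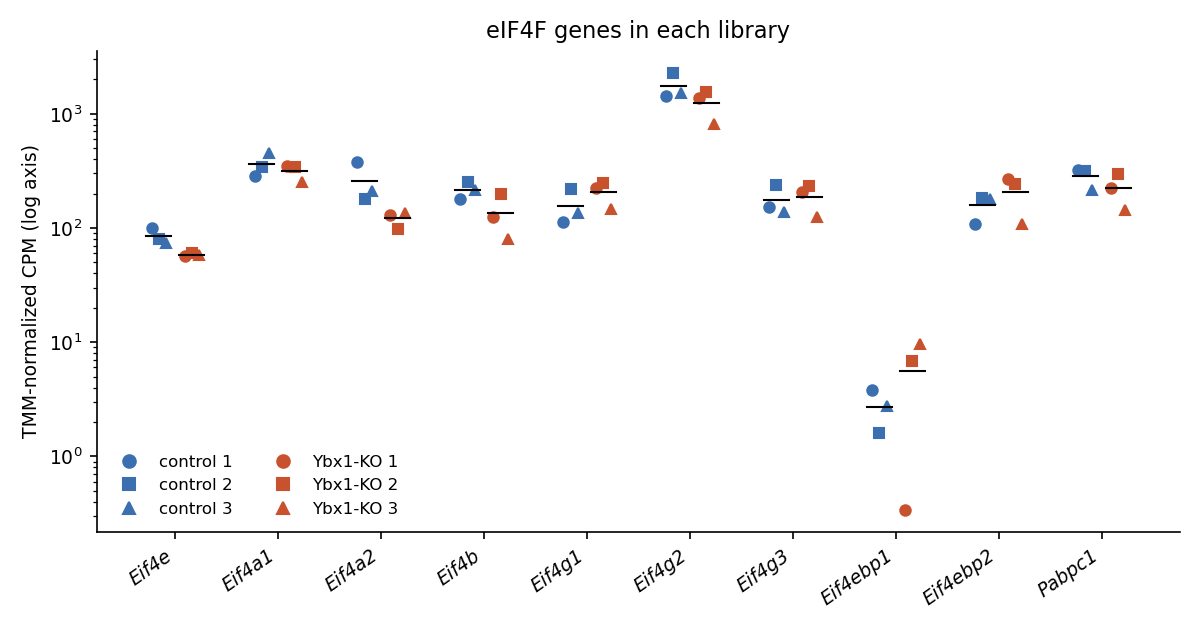
TMM-normalized CPM (log axis) of the 10 eIF4F genes in each of the 3 control (blue) and 3 Ybx1-KO (red) libraries, with a black bar at each group's mean. Eif4e and Eif4a2 are the genes whose groups do not overlap, Eif4g2 lies highest, and Eif4ebp1 lies lowest with a value of 0.340 CPM in Ybx1-KO 1.

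The scaffold genes overlapped in level between the groups and lay apart in their mix. Eif4g1 (chromosome 16, bases 20668313 to 20692884) and Eif4g3 encode the eIF4G forms that bind eIF4E, and Eif4g2 (chromosome 7, bases 111067750 to 111083030) encodes a relative, also called DAP5, that lacks the eIF4E-binding part and serves other routes of initiation. As single genes, all 3 overlapped between the groups. Eif4g1 had 113, 219 and 136 CPM in control and 225, 247 and 146 CPM in Ybx1-KO NPCs, with a log2FC of 0.40 ± 0.432 (SE). Eif4g2 had 1441, 2294 and 1507 CPM in control and 1374, 1552 and 818 CPM in Ybx1-KO NPCs, a log2FC of -0.49 ± 0.556 (SE). Eif4g3 had 152, 240 and 139 CPM in control and 207, 231 and 126 CPM in Ybx1-KO NPCs, a log2FC of 0.09 ± 0.431 (SE). The smallest edgeR FDR of the 3 was 0.667. With 1 library left out, Eif4g1 ran from 0.21 (without control 1) to 0.73 (without control 2), Eif4g2 from -0.67 (without Ybx1-KO 2) to -0.24 (without control 2; -0.28 without Ybx1-KO 3), and Eif4g3 from -0.09 (without Ybx1-KO 2) to 0.37 (without control 2). Each of the 3 genes was highest in control 2 among the controls and in Ybx1-KO 2 among the Ybx1-KO libraries.

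Within a library, the mix of the 3 scaffolds differed between the genotypes. Counts were set to FPKM, so that genes could be compared, and a ratio of such values in 1 library does not depend on scaling between libraries. The FPKM ratio of Eif4g1 to Eif4g2 was 0.109, 0.133 and 0.126 in control and 0.228, 0.222 and 0.249 in Ybx1-KO NPCs. The groups were well separated and each was tight. The ratio was 1.90-fold higher in Ybx1-KO NPCs, a log2 difference of 0.93 with a standard error of 0.10 (two-sided exact permutation test, p = 0.1; 0.4 after Benjamini-Hochberg adjustment over 8 ratios). It stayed between 0.84 and 0.99 with each library left out in turn, and was 0.92 with libraries that share the first number of their title summed, where 2 against 2 give an exact permutation p of 0.333. The ratio to Eif4g2 was higher without overlap in Ybx1-KO NPCs for 12.7% of all tested genes, so a higher ratio to Eif4g2 was not rare among genes.

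The ratio of Eif4g1 to Eif4g3 differed less. It was 1.13, 1.38 and 1.49 in control and 1.65, 1.62 and 1.76 in Ybx1-KO NPCs, again without overlap. The log2 difference was 0.34 with a standard error of 0.125 (two-sided exact permutation test, p = 0.1; adjusted p = 0.4), and 0.23 without control 1. Such a difference from Eif4g3 was seen at 3.4% of all tested genes. Taken as shares of the summed FPKM of the 3 scaffolds, a description chosen after the values were seen, Eif4g2 made up 82.3 ± 0.836% in control and 72.9 ± 0.888% in Ybx1-KO NPCs (SD, n = 3 each). Eif4g1 made up 10.1 ± 0.936% and 17.0 ± 0.836%, and Eif4g3 7.62 ± 0.541% and 10.1 ± 0.0543%. As parts of the same sum the shares are tied, so a lower share of Eif4g2 raises the others. The level of Eif4g3 itself overlapped between the groups. Ybx1-KO 3, the library that stood apart in background, had shares close to those of Ybx1-KO 1 and 2. The annotated exons span 7301 bases in Eif4g1, 10166 in Eif4g2 and 11063 in Eif4g3.

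**Figure D2:**
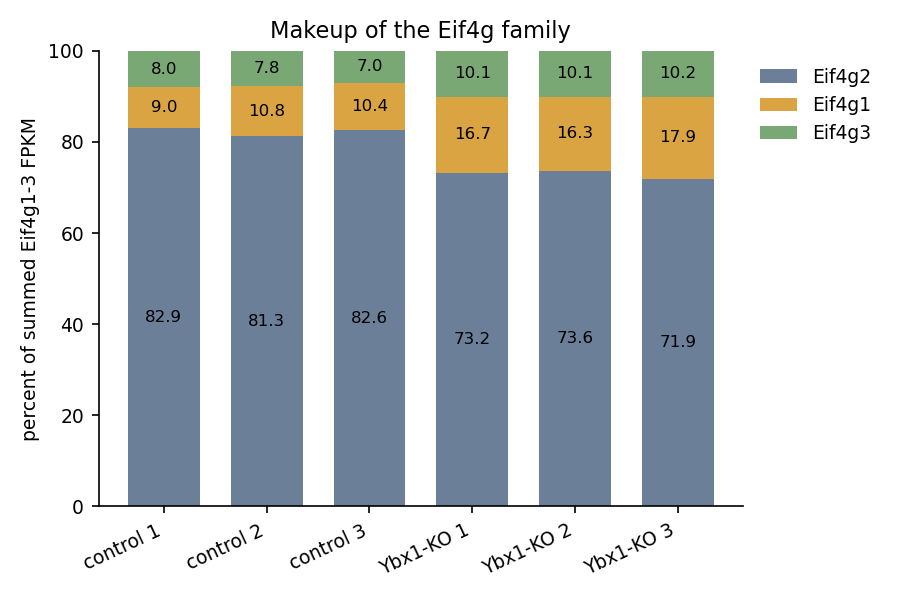
Each bar is a library, divided into the percent of the summed FPKM of Eif4g1, Eif4g2 and Eif4g3 that came from each gene. Eif4g2 takes 81.3 to 82.9% in the control libraries and 71.9 to 73.6% in the Ybx1-KO libraries.

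The 4E-BPs were very unequal in level. Eif4ebp2 had 109, 184 and 180 CPM in control and 270, 241 and 108 CPM in Ybx1-KO NPCs. Ybx1-KO 1 and 2 lay above all controls, but Ybx1-KO 3 lay at the level of control 1. In FPKM, which does not use TMM, Ybx1-KO 3 had 27.8, against 18.8 in control 1 and 28.4 in control 2 and in control 3. The log2FC was 0.39 ± 0.453 (SE; edgeR FDR 0.691). It was 0.68 without Ybx1-KO 3, 0.15 without Ybx1-KO 1, 0.18 without control 1 and 0.12 with title numbers summed. Eif4ebp1 had few counts, 80, 34 and 54 in control and 3 (close to the limit of counting), 66 and 68 in Ybx1-KO NPCs. The Ybx1-KO libraries thus held both the lowest and the highest of its levels, at 0.340, 6.85 and 9.66 CPM against 1.59 to 3.84 in control. Its log2FC of 1.04 was about as large as its standard error of 1.00 (edgeR FDR 0.627), and limma-voom gave 0.16. It was 0.35 without Ybx1-KO 3 and 1.60 without Ybx1-KO 1. Eif4ebp2 supplied 81.0 to 99.7% of the summed FPKM of the pair in every library. The remaining 4E-BP gene, Eif4ebp3, had 0 or 1 count per library and was not tested.

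Pabpc1, whose protein binds the poly(A) tail and contacts eIF4G, had 323, 314 and 215 CPM in control and 223, 300 and 144 CPM in Ybx1-KO NPCs. The groups overlapped, and Ybx1-KO 3 was the lowest library in CPM. In FPKM, which does not use TMM, control 3 was the lowest at 29.9, and Ybx1-KO 3 had 32.6. The log2FC was -0.35 ± 0.444 (SE; edgeR FDR 0.715), and it was -0.15 without Ybx1-KO 3 and -0.63 without Ybx1-KO 2.

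The other 6 ratios compared overlapped between the groups. Eif4a1 over Eif4a2 was 0.937, 2.35 and 2.68 in control and 3.34, 4.31 and 2.28 in Ybx1-KO NPCs, so control 1 was the library in which Eif4a2 exceeded Eif4a1 per length. The log2 difference was 0.83 with a standard error of 0.546 (two-sided exact permutation test, p = 0.3), and it was 0.35 without control 1. Eif4e over its inhibitor Eif4ebp2 was 0.884, 0.419 and 0.393 in control and 0.203, 0.241 and 0.513 in Ybx1-KO NPCs. Ybx1-KO 1 and 2 were below all controls, and Ybx1-KO 3 was above controls 2 and 3 (log2 difference -0.84, standard error 0.556, exact permutation p = 0.3). This difference was -0.47 without control 1 and -1.25 without Ybx1-KO 3. Eif4e over Eif4g1 had a log2 difference of -0.94 (standard error 0.431) and Eif4b over Eif4a1 one of -0.59 (standard error 0.333), each with an exact permutation p of 0.2. The former was -0.61 without control 1. Both ratios with Eif4ebp1 had standard errors above 1.5 on the log2 scale. After adjustment over the 8 ratios, the smallest exact permutation p was 0.4.

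**Figure D3:**
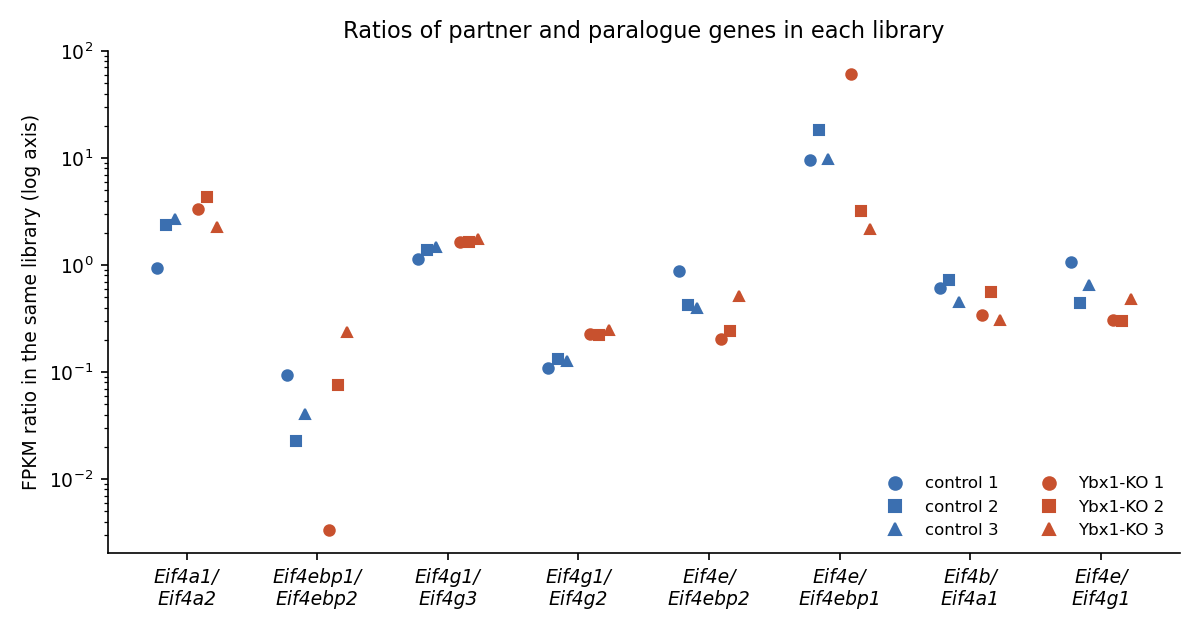
Ratio of FPKM of 2 genes in the same library (log axis) for 8 pairs, with control libraries in blue and Ybx1-KO libraries in red. Eif4g1/Eif4g2 (0.109 to 0.133 against 0.222 to 0.249) and Eif4g1/Eif4g3 are the pairs whose groups do not overlap, and the pairs with Eif4ebp1 spread most.

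Per length, the order of the genes was stable at its ends. Eif4g2 was the most abundant, at a mean of 142 FPKM over the 6 libraries (110 to 202), followed by Eif4a1 at 76.8 FPKM, and this order held in 6 of 6 libraries. Pabpc1 at 37.3, Eif4b at 37.0, Eif4a2 at 35.5 and Eif4ebp2 at 30.4 FPKM could not be ranked, as neighbours in this order kept it in 4 of 6 libraries. Eif4g1 had a mean of 24.3 FPKM, below Eif4ebp2 in 5 of 6 libraries, Eif4g3 one of 16, below Eif4g1 in 6 of 6, and Eif4e one of 11.9, below Eif4g3 in 5 of 6. Eif4e, the cap-binding subunit itself, was thus below every scaffold gene in mean FPKM. The length used was that of all annotated exons of a gene together, 6008 bases for Eif4e. The lengths of the transcripts expressed were not measured, so the order between genes could differ with them. Eif4ebp1 was last in all 6 libraries at a mean of 2.08 FPKM.

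Seen as a list, 6 of the 10 members had a negative and 4 a positive log2 fold change, from -1.08 for Eif4a2 to 1.04 for Eif4ebp1. Their median was -0.28, against 0.31 for all 21329 tested genes, and 7 of 10 lay below the latter. This distance of -0.59 was -0.35 among protein-coding genes alone, -0.27 among genes above 1 CPM in 3 libraries, -1.07 without a low-count filter, -0.71 without Ybx1-KO 2 and -0.05 without Ybx1-KO 3. It thus varied with the genes compared and was close to 0 without Ybx1-KO 3.

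**Figure D4:**
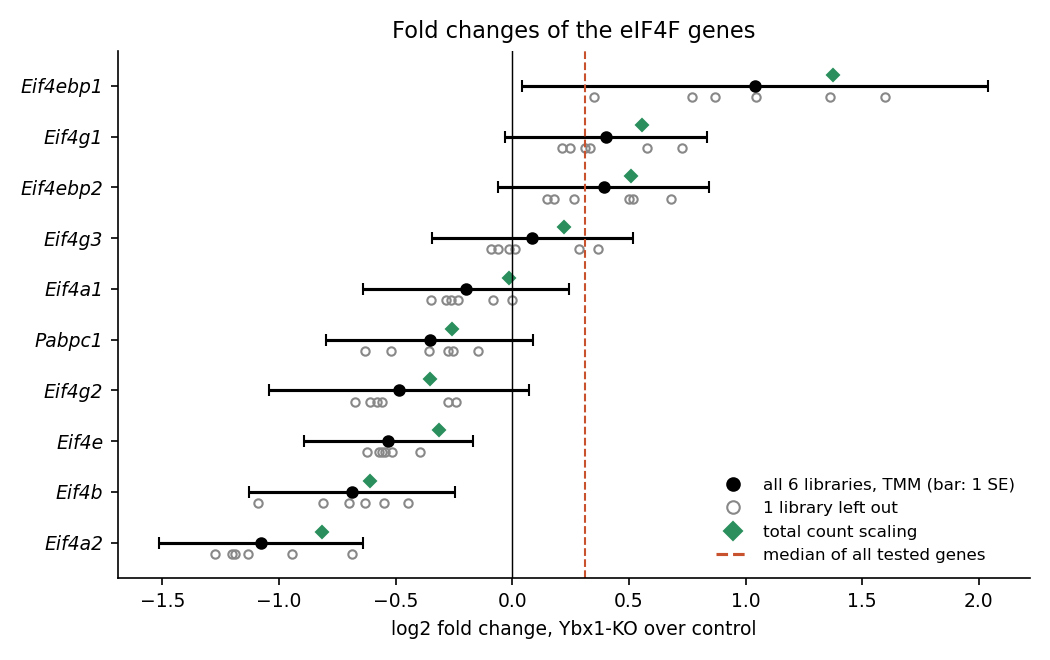
Log2 fold change of each eIF4F gene, Ybx1-KO over control, with all 6 libraries (black point, bar of 1 standard error), with each library left out (open circles) and under total count scaling (green diamonds). The dashed line is the median of all tested genes at 0.31. Eif4a2, Eif4b, Eif4e, Eif4g2 and Pabpc1 stay below 0 in every fit drawn, and the bars of Eif4a2, Eif4b and Eif4e, below 0, and of Eif4ebp1, above 0, do not reach 0 while none of these has an adjusted p under 0.05.

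The partners of the cap complex were then examined as a list of 16 genes, of which 15 were tested. By edgeR 0 passed, and 1 had an unadjusted p below 0.05. This was Paip2b, which encodes an inhibitor of poly(A)-binding protein, with 42.9, 41.7 and 41.6 CPM in control and 18.9, 27.2 and 22.9 CPM in Ybx1-KO NPCs. Its groups lay far apart against a narrow control range (log2FC -0.87 ± 0.360 SE; edgeR FDR 0.444). Pdcd4, whose protein inhibits eIF4A, also lay lower without overlap, with 88.0, 84.4 and 84.0 against 66.9, 48.5 and 61.4 CPM and a log2FC of -0.54 ± 0.363 (SE). In FPKM, which does not use TMM, its groups overlapped, at 24.1 to 28.1 in control and 11.2 to 29.1 in Ybx1-KO NPCs. Under TMM, groups lay lower without overlap at 8.15% of all tested genes.

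The remaining partners overlapped between the groups. Mknk1, one of the kinases that phosphorylate eIF4E, had a log2FC of 0.90 ± 0.516 (SE) and its relative Mknk2 one of 0.18. The eIF4E relatives Eif4e2 and Eif4e3 had 0.20 and -0.21. Eif4h, a helicase cofactor related to Eif4b, had 0.24, and Eif4a3, the eIF4A relative of the exon junction complex, had 0.11. Pabpc4 had -0.18, Paip1, an activator that binds poly(A)-binding protein, had -0.24, and the inhibitor Paip2 had -0.01. The eIF4E-binding proteins Eif4enif1 and Cyfip1 had -0.25 and -0.21, and Gigyf2, a partner of the repressor Eif4e2, had -0.24. Larp1, which binds mRNAs controlled by mTORC1, had 0.17. Leaving out Mknk1, the standard errors of these 12 genes were 0.363 to 0.466, larger than every one of their fold changes.

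Among 33 factors of the ribosomal preinitiation complex, 0 passed, 1 was higher and 2 were lower at an unadjusted p below 0.05 by edgeR. The median log2 fold change was 0.01. The lowest were Eif2s1 and Eif2s3x, subunits of eIF2, which carries the initiator tRNA. Eif2s1 had 80.1, 100.0 and 102 CPM in control and 22.8, 73.4 and 38.7 CPM in Ybx1-KO NPCs (log2FC -1.06 ± 0.435 SE). Eif2s3x had 71.9, 68.9 and 73.6 CPM in control and 42.3, 45.1 and 31.1 CPM in Ybx1-KO NPCs (log2FC -0.85 ± 0.362 SE). Both lay lower without overlap, and both had an edgeR FDR of 0.444. The highest were Eif3f (log2FC 0.87 ± 0.552 SE), a subunit of eIF3, and Eif6 (0.86 ± 0.385 SE), which keeps the large ribosomal subunit from joining too early. Eif3f stood at 499 CPM in Ybx1-KO 1 but at 148 and 93.1 CPM in Ybx1-KO 2 and 3, against 97.1 to 173 in control. Eif6 lay higher without overlap in CPM, but in FPKM its groups overlapped, at 11.5 to 16.8 in control and 14.8 to 38.3 in Ybx1-KO NPCs. Over all tested genes, groups lay lower without overlap in CPM at 8.15% and higher at 4.99%.

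Of 23 tested genes of the mTORC1 pathway, 0 passed, 1 was higher and 1 lower at an unadjusted p below 0.05 by edgeR, with a median log2 fold change of 0.11. Mlst8, a subunit of mTORC1, had 12.4, 12.3 and 12.3 CPM in control and 38.6, 18.8 and 17.5 CPM in Ybx1-KO NPCs (log2FC 1.02 ± 0.429 SE). Sesn2, a stress-induced inhibitor of the pathway, had a log2FC of 0.99 ± 0.644 (SE), and its relative Sesn1 one of -0.89 ± 0.486 (SE). The ribosomal S6 kinase Rps6kb2 had -1.59 ± 0.724 (SE) with 6 counts in Ybx1-KO 1. Groups lay apart for Mlst8, Sesn2 and Rps6kb2, as they did in either direction at 13.1% of all tested genes, and overlapped for Sesn1.

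The 12 elongation and termination factors had 0 genes past the threshold and 0 at an unadjusted p below 0.05 by edgeR, with a median log2 fold change of -0.04. The lowest were Eef1g at -0.89 ± 0.456 (SE) and Eef2 at -0.55 ± 0.530 (SE), and the highest were Eef1d at 0.82 ± 0.422 (SE) and Eif5a at 0.40 ± 0.502 (SE). Of 80 tested genes of cytosolic ribosomal proteins, 0 passed, 4 were higher and 1 lower at an unadjusted p below 0.05, with a median of 0.04. The translation lists thus had medians between -0.28 and 0.11, all below that of all genes in this fit. Among genes above 1 CPM in 3 libraries the mTORC1 and ribosomal medians were above that of all genes, by 0.12 and 0.05, as was mTORC1 among protein-coding genes, by 0.05, and the ribosomal list without control 3, by 0.11. Without Ybx1-KO 3, the medians of the preinitiation, mTORC1, elongation and ribosomal lists were above that of all genes, by 0.19, 0.25, 0.23 and 0.18, and that of the partners was below it by a difference of -0.04.

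**Figure D5:**
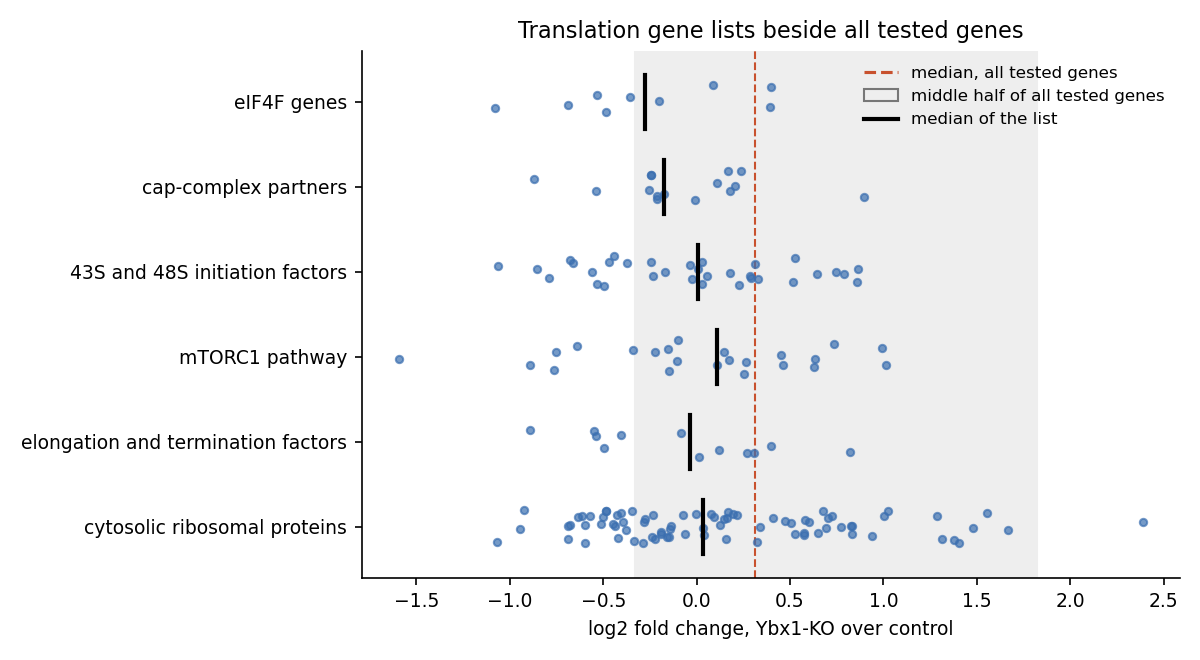
Log2 fold changes of the tested genes of 6 translation lists (blue points, with a black bar at the median of the list), beside the median (dashed, 0.31) and the interquartile range (grey) of all 21329 tested genes. The eIF4F genes have the lowest median of the 6 lists, at -0.28, and the points of all lists spread on both sides of 0.

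Genes whose profile over the 6 libraries was most like that of a member were found by the root mean square difference of mean-centred log2 CPM. For Eif4a1 these were St3gal2, Ywhaq and Atxn10, at 0.0745 to 0.0819, where the median tested gene differed by 0.819. For Eif4a2 they were Tnik, Cdkl3 and the rRNA gene Gm22586, at 0.151 to 0.169 against a median of 1.02. Gm22586 had at most 0.240 CPM in control and was at 0 in all Ybx1-KO libraries, so its likeness rests on few counts and the 0.1 CPM added. Tnik had 173, 93.7 and 95.9 CPM in control and 65.7, 51.1 and 52.2 CPM in Ybx1-KO NPCs, so it too was highest in control 1. For Eif4ebp1 they were Gm45444, Prrt3 and Gm28424, at 0.117 to 0.255 against 1.57, none above 7.25 CPM in any library.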

How the data were processed

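Total RNA of sorted NPCs was sequenced in 3 control and 3 Ybx1-KO libraries. The authors made stranded paired-end libraries, mapped the reads, counted them on GENCODE genes with HTSeq 0.6.1p1 (mm10 or GRCm38.p5 in the submitters' processing notes) and deposited raw counts per gene symbol, without normalization or pooling. The aligner and the strand setting of the counting are not given in the sources used here, so counts of overlapping or antisense genes are uncertain, and reads that did not map uniquely (20.1 to 35.6% of tallied read pairs) were not counted, which can lower genes with near-identical pseudogenes. Rows that name no gene (75.3 to 92.8% of tallied read pairs per library) stayed out. Whether a library is 1 embryo is not stated, and control 1 and 2, like Ybx1-KO 1 and 2, share the first number of their titles, whose meaning (such as a litter) is not given. p-values thus measure the spread between these libraries, which may not be independent.

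Here, counts were normalized by TMM and tested with edgeR 4.0.16 (quasi-likelihood, Benjamini-Hochberg) in R 4.3.3. limma 3.58.1 (voom, the test the study names) and DESeq2 1.42.0 were alternatives. Genes entered where control or Ybx1-KO libraries averaged more than 1 FPKM, on exon lengths of GENCODE M21, which matched 47624 of 51733 symbols by name and 365 by an older name. All 10 members passed this filter. Exact permutation tests were two-sided. The scripts were tested on simulated data. At these depths 3 counts stand at 0.126 to 0.632 CPM of all gene counts before TMM, which covers counting error only. The CPM values of genes above are after TMM on tested genes, so this limit is on another scale. No library was a copy of another (lowest chi-square over its degrees of freedom 58.9). The members and lists were chosen with earlier results of these data known. Genes named beyond the members are all cap-complex partners, the 2 highest and 2 lowest genes of 3 wider lists, and the 3 nearest profiles to Eif4a1, Eif4a2 and Eif4ebp1. Alternatives were 3 other scalings, 4 gene filters or dispersion settings, each library left out, and libraries sharing the first number of their title summed. Ratios used counts per exon length, and the profile comparison added 0.1 CPM.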

Additional observations from a re-analysis of the deposited data

Results flagged for a closer look

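Ybx1-KO 3 had 4691 of every 1000000 gene counts on chemosensory receptors (olfactory, vomeronasal, taste), a signal outside the comparisons above and over the 98.3 of the highest control library. The same library had the highest share of read pairs outside genes, and its part in the differences of single eIF4F genes was not tested beyond leaving it out.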

How the results depend on the processing

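The count of eIF4F genes past the threshold was 0 under each of the 16 alternatives run. The count over all genes rose from 0 to 214 with DESeq2, 193 without a low-count filter and 105 with libraries that share a title number summed, and ran from 0 to 420 with 1 library left out (420 without Ybx1-KO 2, 107 without Ybx1-KO 1, 71 without control 2, 46 without Ybx1-KO 3). In the wider lists it was 1 without a filter (Rpl36al) and 0 to 2 with a library left out (Rpl36al and Rps6kb2 without Ybx1-KO 2). Members without overlap numbered 5 with title numbers summed and 3 to 4 with a library left out. Fewer libraries leave more genes apart (34% and 16.3 to 26.2% of all tested genes, against 13.1%). Eif4e and Eif4a2 were among these members each time. Both already lay apart with all libraries under TMM, and leaving out or summing libraries can hardly make such groups overlap. Their recurrence is thus no separate check. Under total count scaling both overlapped, and Eif4b and Eif4ebp2 lay apart instead. The other scalings tried kept Eif4e and Eif4a2 apart. Ybx1 passed with DESeq2 (-2.44), without a filter (-2.52) and without Ybx1-KO 1, with a range of -3.46 to -1.99 over libraries left out. Eif4a1 ran from -0.35 to 0.00092 and Eif4g3 from -0.090 to 0.37 with a library left out, and Eif4g3 was -0.0045 without a filter. The Eif4ebp1/Eif4ebp2 difference was 1.11 with title numbers summed and ran from -1.48 to 1.59, and that of Eif4e/Eif4ebp1 ran from -2.17 to 0.23, on few Eif4ebp1 counts. The median log2 fold change of all genes moved by 0.22 under total count scaling, 0.39 without a filter and -0.38 without Ybx1-KO 3; the cause was not tested. No paired analysis was possible because the groups share fewer than 2 numbers in their titles.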
